A study of Homo sapiens with 6 samples.

Results

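The genes of the human mitochondrial genome were examined in a comparison of a STING plasmid with a control plasmid. They were chosen by name, as the rows whose symbol starts with MT-, and these were 37 of the 42307 genes listed. All 37 lay on the mitochondrial chromosome, which held no other row, and all 37 had the same start and end in GENCODE release 29 (GRCh38). They comprise 13 mRNA genes, 2 rRNA genes and 22 tRNA genes. By convention 28 of them are called heavy-strand genes (the plus strand of the files) and 9 light-strand genes (the minus strand), namely MT-ND6 and 8 tRNA genes. All 37 passed the filter on low counts.

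RNA sequencing had been done on U251, an established human glioblastoma cell line labelled WT in genotype. The STING-OE group (3 libraries) received a STING overexpression plasmid and the NC group (3 libraries) a negative control plasmid, each at 1 ug per well, and both were collected on day 3. STING is the adaptor of the pathway by which cells sense DNA in the cytosol, and mitochondrial DNA that leaks from the organelle is one of its known triggers. Transfected plasmid DNA, which both groups carry, can be sensed by the same pathway.

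Libraries held 75605739 to 76566375 counts in STING-OE and 71498790 to 76158548 counts in NC. STING1, the gene on the plasmid, had 56.3, 54.7 and 47.3 CPM (counts scaled to library size) in the STING-OE libraries, against 36.2, 37.1 and 31.2 CPM in the NC libraries. Of 8 glioma and astrocytic markers, VIM was at 2560 to 2817 CPM, CD44 at 901 to 969.6 CPM, NES at 160.3 to 188 CPM, SOX2 at 100.1 to 124 CPM, GJA1 at 73.9 to 82.1 CPM, SLC1A3 at 54.5 to 60.6 CPM and GFAP at 17.7 to 42.8 CPM over all 6 libraries, whereas S100B stayed at or below 0.331 CPM. Of the markers of other cell types EPCAM, ALB and PECAM1 did not exceed 1.10 CPM, PTPRC lay at 0.937 to 7.64 CPM, and CD68 at 17.3 to 34.3 CPM. Each STING-OE library lay below each NC library for VIM, NES, GFAP and S100B, as for 9.73% of all tested genes. The groups overlapped for CD44, SOX2, GJA1 and SLC1A3. Of the 8, GFAP passed the test (edgeR adjusted p = 0.0330), and S100B had only 4 to 25 counts per library. The part of these markers in the results below was not tested.

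The mitochondrial genome is a small circle that is transcribed from both strands into long precursors. The tRNAs lie between most of the other genes and are cut out of the precursors, which releases the mRNAs and rRNAs. The proteins encoded are subunits of the respiratory chain and of ATP synthase, and the other subunits, together with the polymerase and the factors that process and stabilise these RNAs, come from nuclear genes.

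Several neighbours on this compact map share bases, which matters for how reads can be assigned. MT-ND4L and MT-ND4 share 7 bases (positions 10760 to 10766). MT-ATP8 and MT-ATP6, which encode subunits of ATP synthase (complex V), are read from 1 mRNA with both reading frames. They share 46 bases (positions 8527 to 8572), shown in capitals at the end of MT-ATP8, printed from GENCODE release 29 on the plus strand of GRCh38 at chrM:8366-8572.
MT-ATP8: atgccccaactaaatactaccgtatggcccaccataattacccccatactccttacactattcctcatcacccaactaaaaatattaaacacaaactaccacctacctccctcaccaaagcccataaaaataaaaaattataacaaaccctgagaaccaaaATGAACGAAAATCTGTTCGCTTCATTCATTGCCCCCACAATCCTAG

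MT-TI and MT-TQ, the tRNA genes for isoleucine and glutamine, overlap on opposite strands by 3 bases (positions 4329 to 4331), given in capitals. They are shown because a kit that does not mark strand cannot tell which of such a pair a read of the shared bases comes from.
MT-TI, chrM:4263-4331, plus strand: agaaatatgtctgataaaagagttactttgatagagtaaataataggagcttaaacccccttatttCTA
MT-TQ, chrM:4329-4400, minus strand: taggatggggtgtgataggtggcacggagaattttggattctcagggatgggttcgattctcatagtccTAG

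The strands also differ in base composition, as the first 120 bases of the most abundant heavy-strand mRNA and of the light-strand mRNA show, with the start codon in capitals. MT-ND6 is 35.6% G and 7.05% C over its whole length, whereas the 12 heavy-strand mRNA genes are 6.28 to 16.2% G and 29.5 to 36.0% C.
MT-ND6, chrM:14554-14673, minus strand: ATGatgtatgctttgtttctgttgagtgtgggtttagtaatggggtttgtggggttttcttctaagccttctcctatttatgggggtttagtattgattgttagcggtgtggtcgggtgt
MT-CO1, chrM:5904-6023, plus strand: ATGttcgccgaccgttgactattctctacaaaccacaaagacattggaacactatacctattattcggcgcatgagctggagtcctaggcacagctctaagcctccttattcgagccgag

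Mitochondrial genes were among the most abundant in these cells. MT-CO1, a core subunit of cytochrome c oxidase (complex IV), had the highest summed count of all 42307 genes, at 0.998 to 1.27% of the counts of a library. Of the 10 genes with the highest counts 3 were mitochondrial, of the 20 highest 7, and of the 50 highest 12. Together the 37 genes took 3.999%, 3.73% and 4.01% of all counts in STING-OE libraries 1, 2 and 3, against 4.46%, 4.43% and 4.32% in the NC libraries. Each STING-OE library thus lay below each NC library, with 3.91 ± 0.160% in STING-OE and 4.40 ± 0.0718% in NC (SD, n = 3 per group). The difference was −0.493 percentage points, and a two-sided exact permutation test gave p = 0.1, the smallest that 3 against 3 libraries allow (0.13 after adjustment over 13 ratios). In such bulk RNA fewer mitochondrial genomes per cell, less RNA from each, and a different mix of cells cannot be told apart.

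Levels per length, as the mean of the deposited FPKM values, covered about an order of magnitude among the 13 mRNA genes. In STING-OE they were highest for MT-CO1 (6376 FPKM) and MT-ATP8 (5060 FPKM), and lowest for MT-ND5 (746 FPKM), MT-ND3 (641 FPKM) and MT-ND6 (563 FPKM). In NC they were highest for MT-CO1 (7451 FPKM) and MT-ATP8 (6192 FPKM), and lowest for MT-ND5 (860 FPKM), MT-ND6 (679 FPKM) and MT-ND3 (662 FPKM). Between these, in STING-OE, came MT-ND4L (3940 FPKM), MT-ND4 (3832 FPKM), MT-CO2 (3762 FPKM), MT-ATP6 (3722 FPKM), MT-CO3 (3083 FPKM), MT-ND2 (1913 FPKM), MT-ND1 (1468 FPKM) and MT-CYB (1313 FPKM). The NC order differed in the place of MT-ATP6, which at 4446 FPKM stood above MT-ND4L (4318 FPKM), MT-ND4 (4154 FPKM) and MT-CO2 (4129 FPKM). The ranges of neighbours in the order overlapped over libraries in 3 of 12 pairs in STING-OE and in 4 of 12 pairs in NC, so those places are not distinct. The large-subunit rRNA gene MT-RNR2 (2162 FPKM in STING-OE and 2404 FPKM in NC) stood well above the small-subunit rRNA gene MT-RNR1 (727 FPKM in STING-OE and 919 FPKM in NC).

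**Figure D1:**
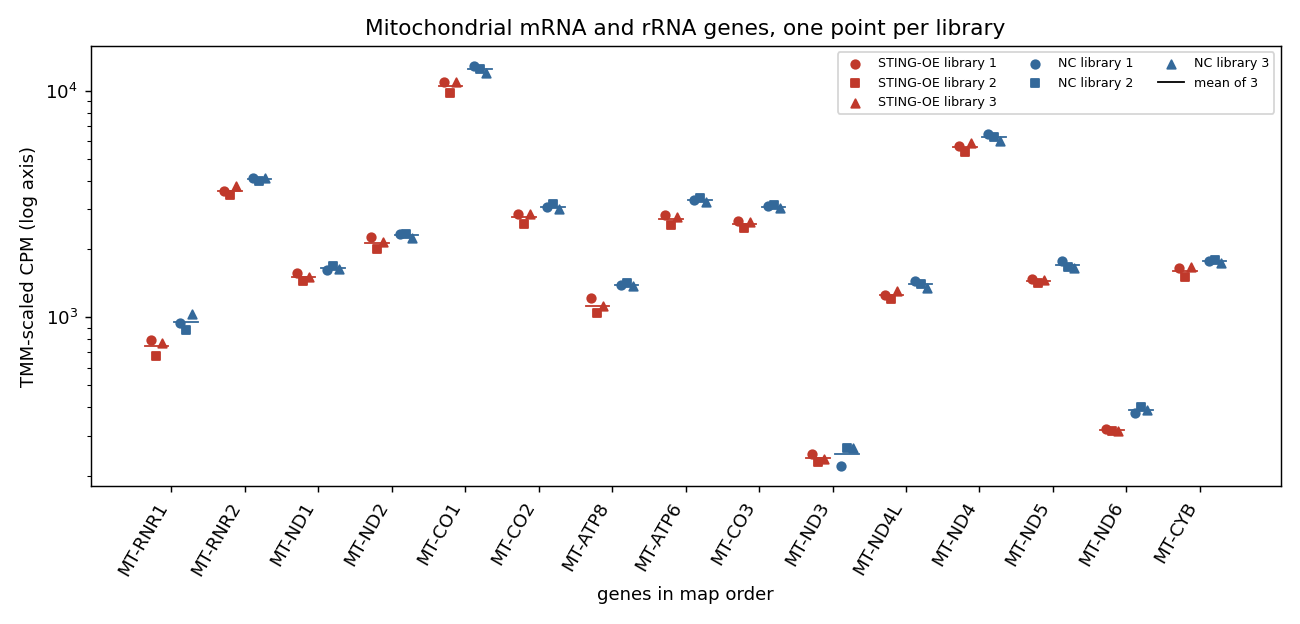
Levels of the 13 mRNA and 2 rRNA genes in map order, in TMM-scaled CPM on a log axis, with a point for each library and a line for the mean of 3. For 13 of the 15 genes each STING-OE point lies below each NC point, against 9.73% of all tested genes, and the groups overlap for MT-ND2 and MT-ND3.

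Of the 15 mRNA and rRNA genes of the mitochondrial genome 7 fell with the STING plasmid and 8 did not pass the test. Of the 22 tRNA genes 0 passed. Of the 37 genes 7 fell, 0 rose and 30 did not pass the edgeR quasi-likelihood test, against 1.49% of all 21679 tested genes called in either direction, 0.89% lower and 0.604% higher. Limma on the deposited FPKM values called 0 of the 37, and 13 of all genes. The fallen genes were MT-ND6, MT-ATP6, MT-CO3, MT-ATP8, MT-ND5, MT-CO1 and MT-RNR1. MT-ATP8 and MT-ATP6 are read from 1 mRNA, so these 7 genes are not 7 separate RNAs. At an unadjusted p under 0.05 a further 8 were lower, giving 15 lower and 0 higher, against 7.2% and 7.17% of all tested genes. The estimate was negative for all 13 mRNA genes and both rRNA genes. The median log2 fold change, STING-OE over NC, was −0.16 for the mRNA genes and −0.10 for all 37, against 0.00 for all tested genes. For 16 of the 37 each STING-OE library lay below each NC library, and for 3 above, against 9.73% and 10.1% of all tested genes, or 19.9% for either. Whether replicates came from separate cultures is not in the labels, and the p-values therefore measure the spread between these libraries, which may be technical.

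Both ATP synthase genes fell, and since they are read from 1 mRNA they are not separate results. MT-ATP8 (ENSG00000228253), whose product is a small subunit of the membrane part of the enzyme, had 1219, 1041 and 1117 CPM in the STING-OE libraries, against 1395, 1415 and 1382 CPM in the NC libraries. All 3 STING-OE values lay below the NC values, and the STING-OE libraries spread more. Its log2 fold change was −0.31 (SE 0.051, edgeR adjusted p = 0.00649), with 1126 ± 89.0 CPM in STING-OE and 1397 ± 16.4 CPM in NC (SD, n = 3). MT-ATP6 (ENSG00000198899; 8527 to 9207), whose product forms part of the proton channel, had 2848, 2559 and 2764 CPM in STING-OE, against 3291, 3360 and 3252 CPM in NC. The groups were apart by more than the spread within either. Its log2 fold change was −0.28 (SE 0.044, edgeR adjusted p = 0.00538). The 46 shared bases are 46 of the 207 bases of MT-ATP8, which makes its value uncertain. That of MT-ATP6 is uncertain too, because a nuclear copy described below can share its reads. Neither gene passed without NC library 1 (edgeR adjusted p = 0.0636 for MT-ATP8 and 0.0578 for MT-ATP6) or NC library 2 (0.0633 for MT-ATP8 and 0.0733 for MT-ATP6).

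Of the 3 subunits of cytochrome c oxidase, the last enzyme of the respiratory chain, 2 fell and 1 did not pass. MT-CO3 (ENSG00000198938; 9207 to 9990), which follows MT-ATP6 directly on the map, had 2660, 2494 and 2639 CPM in STING-OE, against 3106, 3123 and 3031 CPM in NC. All STING-OE libraries were lower. Its log2 fold change was −0.25 (SE 0.041, edgeR adjusted p = 0.00635). MT-CO1 (ENSG00000198804; 5904 to 7445), which holds the site where oxygen is reduced, had 10977, 9763 and 10960 CPM in STING-OE, against 12920, 12571 and 12077 CPM in NC. STING-OE library 2 was the lowest of the 6, and the groups did not overlap. Its log2 fold change was −0.25 (SE 0.048, edgeR adjusted p = 0.0200). MT-CO2, which takes electrons from cytochrome c, was at 2766 ± 161 CPM in STING-OE and 3079 ± 75.4 CPM in NC (SD, n = 3; log2 fold change −0.16, edgeR adjusted p = 0.109). MT-CO3 did not pass without NC library 1 or 2 (edgeR adjusted p = 0.0714 and 0.0832). MT-CO1 passed without STING-OE library 3 (edgeR adjusted p = 0.0400) and not without STING-OE library 1 or 2 (0.0602 and 0.0568) or NC library 1, 2 or 3 (0.138, 0.151 and 0.0674), nor in limma-voom with all libraries (adjusted p = 0.0569).

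Of the 7 subunits of NADH dehydrogenase (complex I, the entry point for electrons from NADH) 2 fell and 5 did not pass, with a median log2 fold change of −0.14. MT-ND6 (ENSG00000198695; 14149 to 14673), the light-strand mRNA, had 322, 315 and 315 CPM in STING-OE, against 377, 399.9 and 389 CPM in NC. The lowest NC library was well above the highest STING-OE library, and the STING-OE libraries were nearly equal. It averaged 317 ± 4.13 CPM in STING-OE and 389 ± 11.4 CPM in NC (SD, n = 3), and its log2 fold change was −0.29 (SE 0.042, edgeR adjusted p = 0.00296). Of the 37 genes MT-ND6 alone passed with each of the 6 libraries left out in turn, with a largest edgeR adjusted p of 0.0431. Reads at MT-ND6 can come from RNA of either strand, which a kit that does not mark strand cannot tell apart.

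MT-ND5 (ENSG00000198786; 12337 to 14148), a subunit of the proton-pumping arm that ends next to MT-ND6 on the other strand, had 1473, 1419 and 1464 CPM in STING-OE, against 1774, 1673 and 1647 CPM in NC. All STING-OE libraries were lower. Its log2 fold change was −0.23 (SE 0.042, edgeR adjusted p = 0.0142). It passed without STING-OE library 1 or 3, and not without STING-OE library 2 (edgeR adjusted p = 0.0574) or NC library 1, 2 or 3 (0.123, 0.0904 and 0.0569). The least changed was MT-ND3, at 249, 229 and 238 CPM in STING-OE and 219, 266 and 264 CPM in NC. NC library 1 lay below all others and the groups overlapped (log2 fold change −0.07, SE 0.069, edgeR adjusted p = 0.752). MT-ND1, MT-ND2, MT-ND4 and MT-ND4L had log2 fold changes of −0.13, −0.11, −0.14 and −0.15, with edgeR adjusted p of 0.162, 0.285, 0.142 and 0.106. Of these only MT-ND2 overlapped between the groups. MT-CYB, the mitochondrially encoded subunit of complex III, was at 1610 ± 91.5 CPM in STING-OE and 1771 ± 29 CPM in NC (SD, n = 3; log2 fold change −0.14, edgeR adjusted p = 0.151), without overlap.

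Of the 2 rRNAs of the mitochondrial ribosome 1 fell. MT-RNR1 (ENSG00000211459; 648 to 1601), the small-subunit rRNA, had 791, 677 and 770 CPM in STING-OE, against 946, 884 and 1036 CPM in NC. The groups did not overlap, and both spread widely. Its log2 fold change, the lowest of the 37, was −0.36 (SE 0.069, edgeR adjusted p = 0.0374). It passed without NC library 2 (edgeR adjusted p = 0.0258) and not without STING-OE library 1, 2 or 3 (0.125, 0.0589 and 0.0904) or NC library 1 or 3 (0.113 and 0.0758), nor in limma-voom with all libraries (adjusted p = 0.102). MT-RNR2 (ENSG00000210082; 1671 to 3229), the large-subunit rRNA, had 3608, 3461 and 3796 CPM in STING-OE, against 4133, 4000.2 and 4124 CPM in NC. The STING-OE libraries were all lower (log2 fold change −0.17, SE 0.042, edgeR adjusted p = 0.0529). It passed without STING-OE library 1 (edgeR adjusted p = 0.0347). There were 21.9, 19.5 and 20.3 counts of MT-RNR1 per 100 of MT-RNR2 in STING-OE, against 22.9, 22.1 and 25.1 in NC, without overlap (two-sided exact permutation p = 0.1, adjusted 0.13). Both rRNAs together took 11.3 ± 0.219% of mitochondrial counts in STING-OE and 11.3 ± 0.471% in NC (SD, n = 3; exact permutation p = 1). The usual protocol of the kit selects poly(A) RNA, and mitochondrial rRNAs carry short tails, so these levels need not stand for the amount of ribosome.

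**Figure D2:**
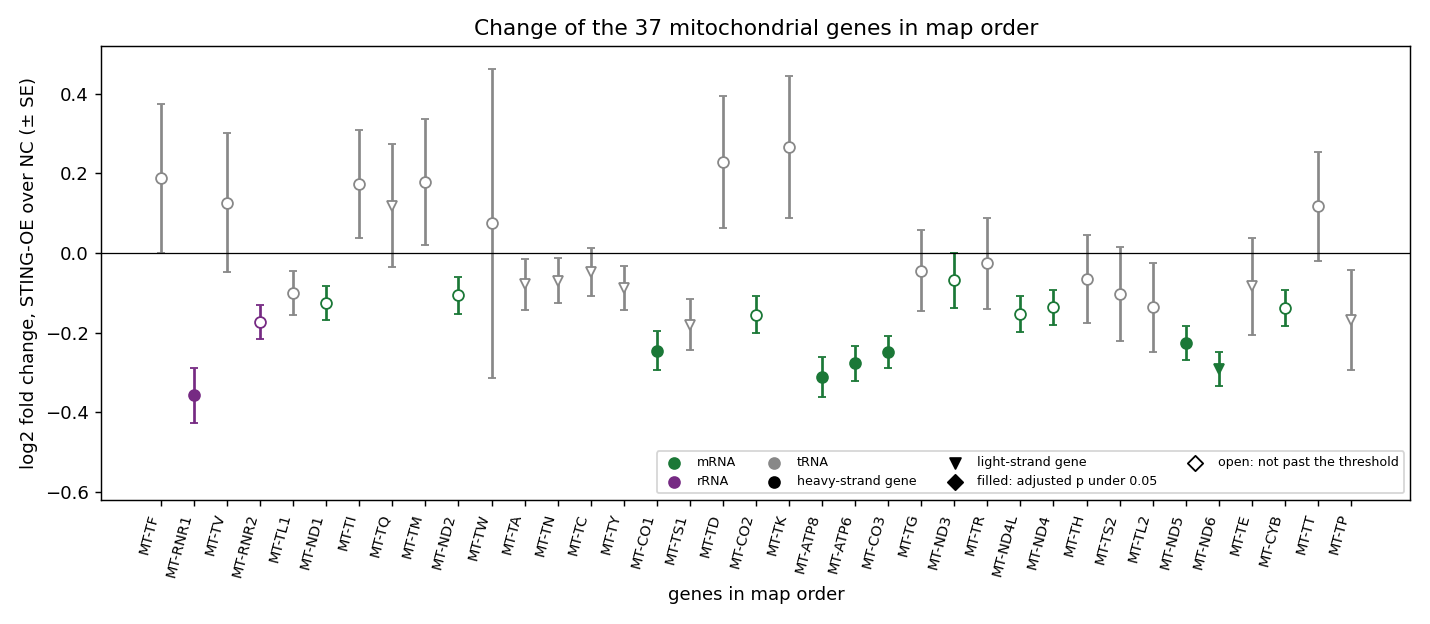
Log2 fold change, STING-OE over NC, of the 37 genes in map order, with bars of 1 SE, triangles for light-strand genes, and filled symbols for an edgeR adjusted p under 0.05. All 15 mRNA and rRNA genes lie below 0, from −0.36 for MT-RNR1 to −0.07 for MT-ND3, while the tRNA genes lie on both sides.

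The tRNA genes, whose products carry amino acids to the mitochondrial ribosome, gave 0 calls among 22 in edgeR. At an unadjusted p under 0.05 edgeR gave 1 (MT-TS1, lower), and DESeq2, voom and limma on FPKM called 0. In limma on FPKM 7 were higher and 2 lower at an unadjusted p under 0.05, against 8.1% and 5.34% of all tested genes. The estimates were negative for 13 and positive for 9, with a median log2 fold change of −0.05. Levels were uneven: 6 genes lay at 422 to 829 mean FPKM over the 6 libraries and the other 16 at 9.32 to 166 FPKM. The 6 were MT-TY, MT-TC, MT-TN, MT-TS1, MT-TL1 and MT-TA, and 5 of them are light-strand genes. A kit that does not mark strand cannot tell whether reads at these genes come from light-strand or heavy-strand RNA. The 9 positive estimates belonged to the 9 genes of lowest level, at 9.32 to 71.8 FPKM, where standard errors were also largest.

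MT-TS1, a serine tRNA gene, had 51.5, 43.5 and 49.8 CPM in STING-OE, against 56.3, 54.7 and 53.2 CPM in NC. The groups did not overlap, but the difference did not pass (log2 fold change −0.18, SE 0.064, edgeR adjusted p = 0.182). MT-TK, the lysine tRNA gene, had the highest estimate, with 4.27, 4.26 and 4.82 CPM in STING-OE and 2.83, 3.80 and 4.46 CPM in NC. The groups overlapped (log2 fold change 0.27, SE 0.178, edgeR adjusted p = 0.560). MT-TR, the arginine tRNA gene, moved least, with 7.01 ± 0.139 CPM in STING-OE and 7.13 ± 0.162 CPM in NC (SD, n = 3; log2 fold change −0.03, SE 0.115, edgeR adjusted p = 0.960). Each STING-OE library lay above each NC library for MT-TI, MT-TM and MT-TV, at 2.64 to 5.87 CPM over all 6 libraries, and 0 of these passed. Each lay below for MT-TS1, MT-TL1 and MT-TP, and 0 of these passed either. Thus 3 of the 22 lay above and 3 below, against 10.1% and 9.73% of all tested genes. MT-TD, MT-TF, MT-TQ, MT-TT and MT-TW had log2 fold changes of 0.23, 0.19, 0.12, 0.12 and 0.07. MT-TG, MT-TH, MT-TE, MT-TS2, MT-TL2 and MT-TP had ones of −0.04, −0.07, −0.08, −0.10, −0.14 and −0.17. For both sets the edgeR adjusted p was 0.603 to 0.969. Reads at a tRNA gene can come from uncut precursors as well as from the mature tRNA, and the counts do not tell them apart. Without marking of strand they can also come from RNA of the other strand.

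**Figure D3:**
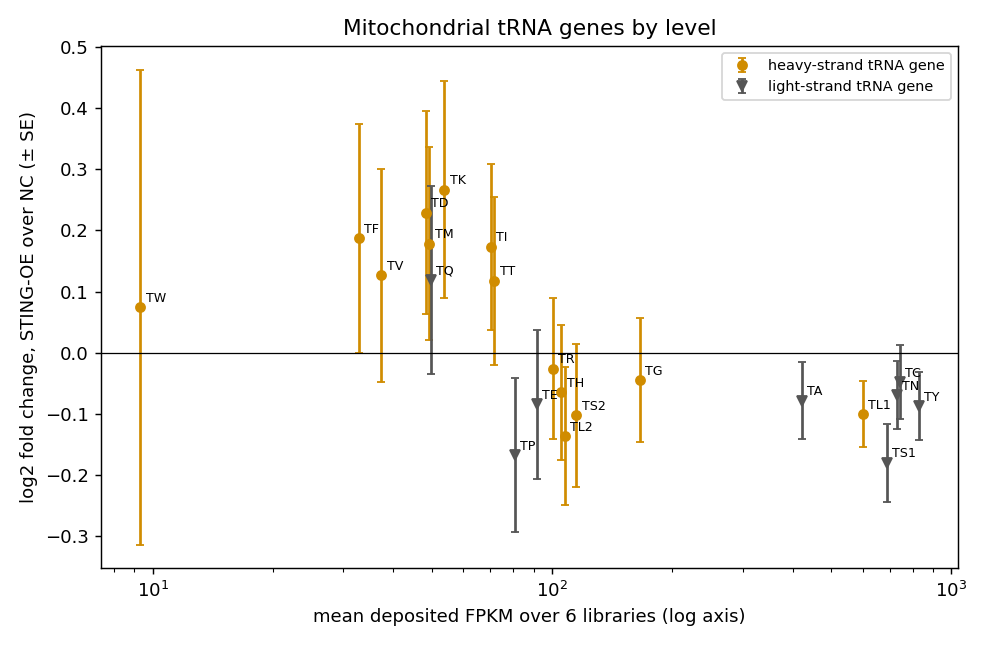
Log2 fold change of the 22 tRNA genes, with bars of 1 SE, against the mean deposited FPKM over 6 libraries on a log axis, with triangles for light-strand genes. The 9 genes with estimates above 0 lie at 9.32 to 71.8 FPKM, and the 6 genes at 422 FPKM or more all lie below 0.

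As a share of mitochondrial counts, tRNA genes stood higher in STING-OE. They gave 9956, 9901 and 9531 counts per 1000000 mitochondrial counts in STING-OE, against 8866, 9004 and 8978 in NC. The groups were apart, with 9796 ± 231 in STING-OE and 8949 ± 73.4 in NC (SD, n = 3; two-sided exact permutation p = 0.1, adjusted 0.13). Set against the heavy-strand mRNAs, counts at MT-ND6, the light-strand mRNA gene, overlapped between the groups. MT-ND6 gave 9.27, 9.96 and 9.10 counts per 1000 heavy-strand mRNA counts in STING-OE, against 9.57, 10.2 and 10.3 in NC. STING-OE library 2 lay above NC library 1 (exact permutation p = 0.2, adjusted 0.236). If strand was not marked, counts at MT-ND6 can hold heavy-strand reads, and the ratio need not compare the strands.

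Within the heavy-strand mRNA pool the shares of the complexes did not overlap between the groups, but none of these differences passed a test. Complex I mRNAs made up 36.0%, 37.0% and 36.4% of the pool in STING-OE, against 35.1%, 34.9% and 34.9% in NC, higher in each STING-OE library. The complex III mRNA likewise made up 4.78 ± 0.0293% in STING-OE and 4.58 ± 0.0459% in NC (SD, n = 3), without overlap. Complex IV mRNAs made up 47.5%, 46.9% and 47.6% in STING-OE, against 48.4%, 48.3% and 48.2% in NC, and complex V mRNAs 11.7%, 11.4% and 11.2% in STING-OE, against 11.9%, 12.2% and 12.3% in NC. Both of these were lower in each STING-OE library. Each of these 4 differences had a two-sided exact permutation p of 0.1, or 0.13 after adjustment, and shares of 1 pool depend on each other. With deposited FPKM in place of counts the difference, STING-OE minus NC, was −0.312 percentage points for complex IV (exact permutation p = 0.2), against −0.985 with counts, and −1.56 for complex V, against −0.711.

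By single gene, the share of the pool was lower in each STING-OE library for 4 mRNA genes and higher for 5, and overlapped for 3 (exact permutation adjusted p = 0.133 at best). How many of all tested genes lie apart on this measure was not computed, so these counts have no background beside them. The lower ones were MT-CO1, MT-ATP8, MT-ATP6 and MT-CO3, of which the last 3 lie side by side on the map. MT-ATP8 made up 3.51%, 3.29% and 3.23% of the pool in STING-OE, against 3.54%, 3.62% and 3.67% in NC. The higher ones were MT-ND1, MT-ND2, MT-CO2, MT-ND4 and MT-CYB. MT-ND2, a subunit of the proton-pumping arm of complex I, made up 6.50%, 6.37% and 6.23% in STING-OE, against 5.92%, 5.99% and 5.97% in NC. When the edgeR fit was scaled to the pool itself, 0 of the 37 genes passed, against 23.6% of all tested genes, 23.4% higher and 0.235% lower. The median log2 fold change of all tested genes was then 0.20. At an unadjusted p under 0.05 that fit gave 6 mitochondrial genes higher and 2 lower, against 35.9% and 0.803% of all tested genes.

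**Figure D4:**
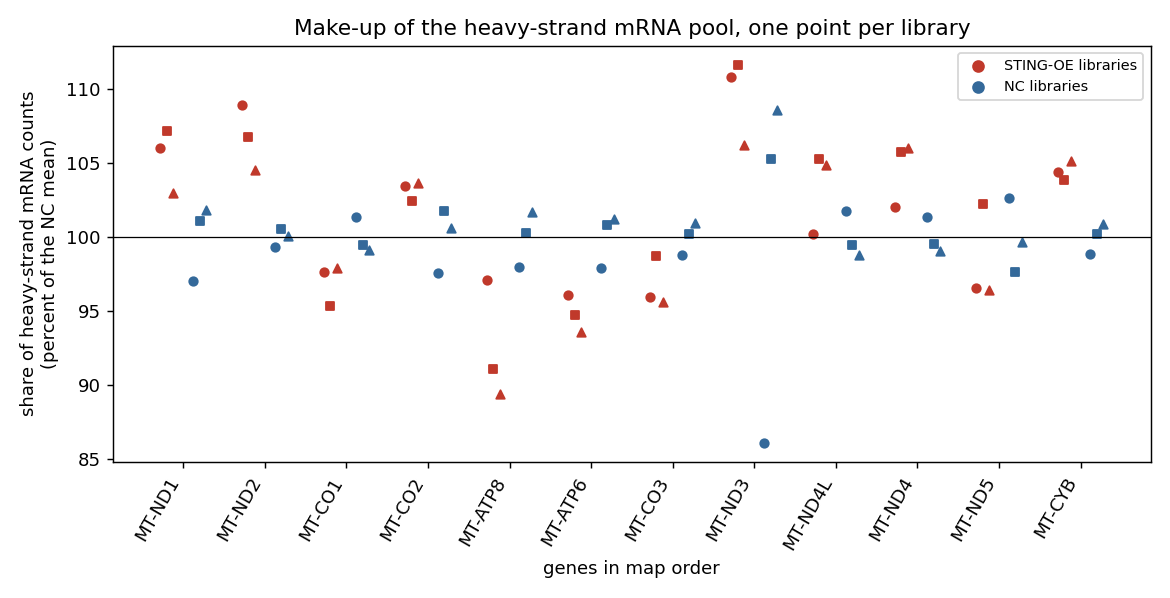
Share of the heavy-strand mRNA counts taken by each of 12 mRNA genes, as a percent of its NC mean, with a point for each library (circle, square and triangle for libraries 1, 2 and 3). MT-CO1, MT-ATP8, MT-ATP6 and MT-CO3 lie lower in every STING-OE library and MT-ND1, MT-ND2, MT-CO2, MT-ND4 and MT-CYB higher, while NC library 1 stands far below the others for MT-ND3.

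**Figure D5:**
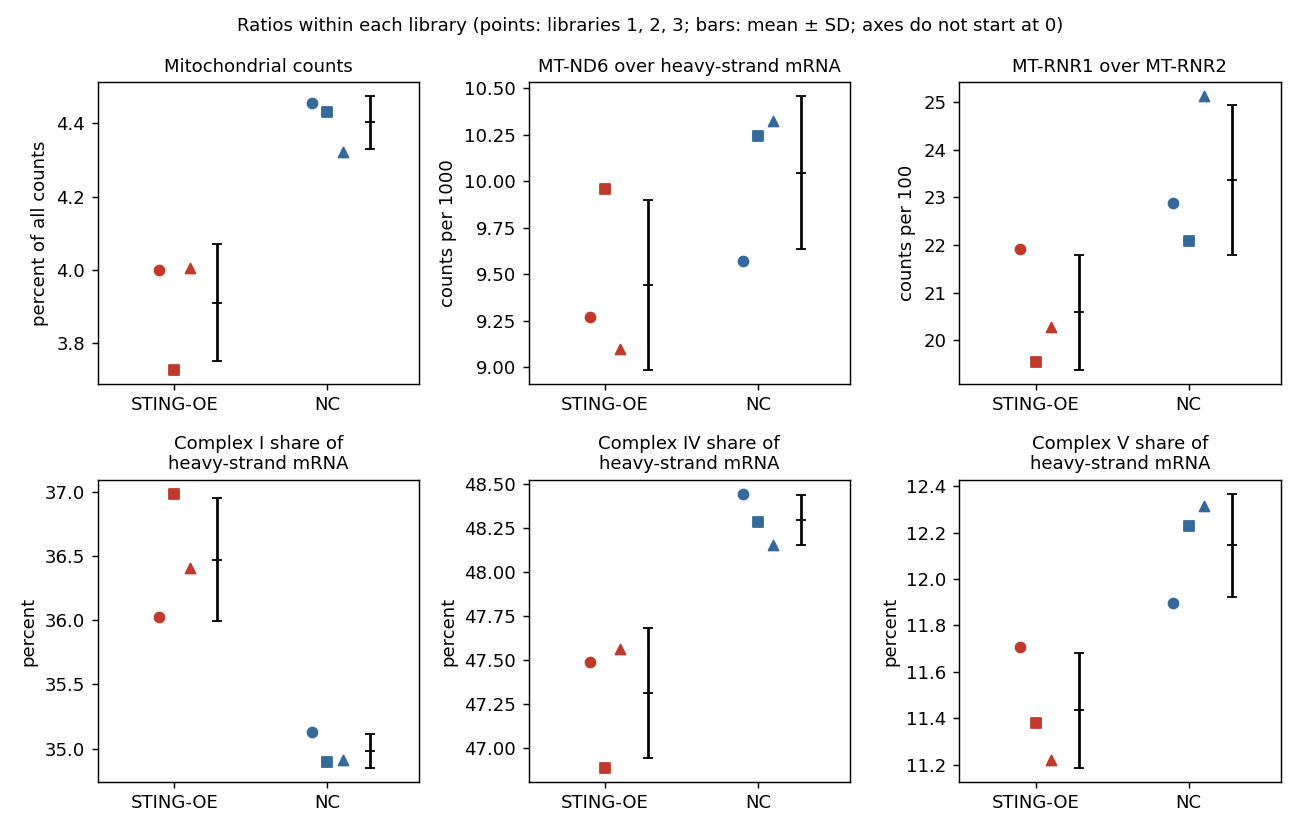
Values of 6 ratios in each library (circle, square and triangle for libraries 1, 2 and 3), with the mean and 1 SD beside them, on axes that do not start at 0. The groups overlap for MT-ND6 over heavy-strand mRNA and are apart for the other 5, among them the mitochondrial share of all counts at 3.91 ± 0.160% in STING-OE and 4.40 ± 0.0718% in NC.

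Within a group the mRNA and rRNA genes mostly had the same library as lowest or highest. Of the 15 mRNA and rRNA genes 14 were lowest, within STING-OE, in library 2, and 11 were highest in library 1. Within NC 10 were lowest in library 3, and 9 were highest in library 2. The SD of these genes as a percent of the mean had a median of 4.63% in STING-OE and 2.45% in NC. Without STING-OE library 1, 2 or 3 edgeR called 9, 4 or 6 mitochondrial genes, against 741, 95 or 163 of all tested genes. Without NC library 1, 2 or 3 it called 1, 2 or 4, against 60, 60 or 104. All called mitochondrial genes were lower in each case. Of the 9, 5 were among the 7 called with all libraries.

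Copies of mitochondrial DNA inserted in nuclear chromosomes can draw reads from the mitochondrial genes. Of 145 such copies in the files 17 averaged at least 10 counts per library. All copies together held 2.10 to 2.22% of the summed counts of copies and mitochondrial genes in STING-OE and 2.08 to 2.18% in NC. MTATP6P1, MTND2P28 and MTCO1P12, neighbours on chromosome 1, held 98.7 to 98.9% of the copies' counts, and the other 14 averaged 10.0 to 176 counts. These were MTND4P12, MTCO3P12, MTND1P23, MTND5P11, MTRNR2L12, MTND5P42, MTCO2P12, MTCO3P11, MTND4P14, MTCYBP18, MTND6P4, MTCO1P15, MTATP6P11 and MTND4LP30. MTATP6P1 (chromosome 1, 633696 to 634376) matches MT-ATP6 with 10 mismatches in 681 bases. They are G19A, C129T, A151C, A175G, A192G, A334G, C417T, C534A, C549T and C642T, with the MT-ATP6 base first and positions counted from 1 at its 5′ end. Positions 73 to 192, with 4 of these mismatches in capitals, show how few bases tell the 2 genes apart, on the plus strand of GRCh38.
MT-ATP6, chrM:8599-8718: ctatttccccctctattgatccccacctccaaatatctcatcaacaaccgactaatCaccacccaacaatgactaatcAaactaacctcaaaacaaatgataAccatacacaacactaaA
MTATP6P1, chr1:633768-633887: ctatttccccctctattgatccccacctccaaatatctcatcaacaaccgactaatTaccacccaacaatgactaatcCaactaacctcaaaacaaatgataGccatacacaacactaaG

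Of the 3 copies with the most counts 2 fell, as did their parents. MTATP6P1 held 12.8 to 13.0% of the counts of itself and MT-ATP6 in STING-OE and 12.6 to 12.8% in NC, and its log2 fold change was −0.25 (SE 0.044, edgeR adjusted p = 0.00996), against −0.28 for MT-ATP6. MTCO1P12 (chromosome 1, 631074 to 632616; 98.7% identical to MT-CO1) held 1.00 to 1.06% of the joint counts in STING-OE and 1.01 to 1.08% in NC, and its log2 fold change was −0.25 (SE 0.058, edgeR adjusted p = 0.0443). MTND2P28 (chromosome 1, 629640 to 630683; 98.4% identical to MT-ND2) held 13.2 to 13.8% in STING-OE and 12.5 to 13.5% in NC, and its log2 fold change was −0.06 (SE 0.052, edgeR adjusted p = 0.718). With each copy's counts added to its parent 7 mitochondrial genes were called, as without. How reads with several matches were counted is not given in the sources used here, so counts of the copies and of their parents are uncertain.

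Nuclear genes that act on the mitochondrial genome and its RNA did not pass the test. The list of 57 holds the mitochondrial RNA polymerase and its factors, genes of DNA copying, and genes of RNA cutting, decay, modification and stability, with some regulators of mitochondrial number. Of the 57, edgeR called 0 and gave an unadjusted p under 0.05 for 11 higher and 1 lower, against 7.17% and 7.2% of all tested genes. Voom and limma on FPKM called 0, and DESeq2 called 3 higher, against 3.2% of all genes with an adjusted p in DESeq2. The median log2 fold change was 0.05, with 43 estimates positive and 14 negative. For 14 genes each STING-OE library lay above each NC library and for 1 below, against 10.1% and 9.73% of all tested genes.

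The 3 with the smallest unadjusted p were also the 3 that DESeq2 called. PNPT1, a ribonuclease of mitochondria (polynucleotide phosphorylase), had 121, 136 and 141 CPM in STING-OE, against 120, 114 and 112 CPM in NC. The groups were apart by a narrow margin (log2 fold change 0.20, SE 0.057, edgeR adjusted p = 0.0939). PNPT1 passed in edgeR without STING-OE library 1 (edgeR adjusted p = 0.0119). RMND1, needed for translation in mitochondria, was at 40.2 ± 1.39 CPM in STING-OE and 34.9 ± 1.08 CPM in NC (SD, n = 3; log2 fold change 0.21, edgeR adjusted p = 0.0970). PPARGC1A, a coactivator that promotes mitochondrial biogenesis, was at 28.7 ± 3.57 CPM in STING-OE and 23.1 ± 1.94 CPM in NC (SD, n = 3; log2 fold change 0.31, edgeR adjusted p = 0.105). PNPT1 and PPARGC1A passed with a stricter filter on low counts (edgeR adjusted p = 0.0362 and 0.0376).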

How the data were processed

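RNA of 6 U251 libraries was sequenced, 3 per plasmid. Per the labels' protocols, Trizol extraction was followed by library construction from 1 ug with the TruSeq RNA kit, whose usual protocol enriches poly(A) RNA and does not mark strand. Bowtie 0.12.2 is named in the submitters' processing notes. For the counting program, the treatment of reads with several matches, the annotation and the strand setting, the answer is not given in the sources used here. The deposited tables hold, per the file headers, the authors' read counts and FPKM values for each gene. FPKM followed the counts in proportion, with a median deviation of 0.139% over 11484 genes. Of 42307 gene identifiers 40903 were found in GENCODE release 29, with an end of the gene within 1 base for 89.8% of them, and coordinates are therefore called GRCh38. No column of values fell outside the 6 libraries, and every row named a gene.

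The test was that of edgeR 4.0.16 in R 4.3.3 on the deposited counts, with filterByExpr by group, TMM factors, a robust quasi-likelihood fit without covariates, a two-sided test and Benjamini-Hochberg adjustment over the 21679 tested genes at a threshold of 0.05. Standard errors were derived from the log2 fold change and its F value and are approximate. CPM values use the TMM-scaled library sizes. Ratios within a library were compared with exact permutation tests (two-sided), adjusted over 13 ratios, and the shares of 12 mRNA genes were adjusted among themselves. Alternatives comprised scaling by RLE, upper quartile and total counts, scaling from nuclear genes only, other filters on low counts, DESeq2 1.42.0, voom and limma 3.58.1 on log2 FPKM with 0.1 added, a replicate block, nuclear copies added to their parents, scaling to heavy-strand mRNA, and leaving out each library. Replicates differed by a chi-square of 11.7 to 23.0 per gene, so none was counted as a duplicate.

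The members and the list of 57 nuclear genes were chosen with earlier results of these data known. The text names STING1, each MT- gene, the nuclear genes past the threshold with the 3 of smallest unadjusted p, and nuclear copies with a mean of at least 10 counts. It gives full statistics for called members and for the most and least changed member of each class. The complex shares and the ratio of MT-RNR1 to MT-RNR2 were added after the data were seen. Copies were aligned to their parents with Biopython 1.88. No GC or length correction was made.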

Additional observations from a re-analysis of the deposited data

How the results depend on the processing

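All-gene calls numbered 324 in the edgeR quasi-likelihood test, 686 with a filter of at least 1 CPM in 3 libraries, 922 in DESeq2, 13 in limma on deposited FPKM, 5121 when scaled to the heavy-strand mRNA pool, and between 60 and 741 with 1 library left out. Scaling to total counts called 246 genes higher and 138 lower, against 131 and 193 with TMM. Called mitochondrial genes numbered 7 with TMM, RLE, total-count and nuclear-only scaling and with nuclear copies added, 8 with upper-quartile scaling or no filter, 9 with the stricter filter, 13 in DESeq2, 6 in limma-voom (without MT-CO1 and MT-RNR1) and 0 in limma on FPKM, where 15 were lower and 7 higher at an unadjusted p under 0.05, the 7 all tRNA genes. They numbered between 1 and 9 with 1 library left out. Of the nuclear list 0 passed in edgeR, and between 0 and 1 with 1 library left out. With the stricter filter 2 were called higher, against 274 of all 14979 genes tested there, and in DESeq2 3, against 398 of 12451. Scaled to the heavy-strand mRNA pool, an alternative chosen after seeing the data, 31 were called higher, against 23.4% of all tested genes. The median log2 fold change of all tested genes was then 0.20. Deviations from the group means correlated by 0.0841, 0.0114 and 0.0112 for equal replicate numbers 1, 2 and 3, and by −0.0498 to 0.0442 for unlike numbers. Not every library correlated best with its own number. With 3 libraries per group such correlations cannot decide whether equal numbers mark a shared batch, and the labels do not say. With the replicate number as a block 120 genes and 4 mitochondrial genes passed, MT-ND6, MT-ATP6, MT-ATP8 and MT-RNR1.

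Scaled to the heavy-strand mRNA pool 0 mitochondrial genes passed, and log2 fold changes turned to 0.0272 for MT-RNR2, 0.0760 for MT-ND1, 0.0942 for MT-ND2, 0.0455 for MT-CO2, 0.13 for MT-ND3, 0.0492 for MT-ND4L, 0.0648 for MT-ND4, 0.0632 for MT-CYB, 0.0191 for MT-TS1 and 0.18 for MT-TR. The other 11 tRNA genes with negative estimates turned too. Of all 37 estimates 30 were positive, among them all 22 of tRNA genes, against 9 with TMM. The pool itself took 3.40% of counts in STING-OE and 3.83% in NC. MT-TR was at 0.0043 with total-count scaling. With deposited FPKM the difference in the mitochondrial share was −1.68 percentage points and that in tRNA 9556 per 1000000, since length then weights the genes. With FPKM the complex IV share moved to −0.312, the complex V share to −1.56 and MT-RNR1 per 100 of MT-RNR2 to −4.56, against −0.985, −0.711 and −2.79 with counts. With 1 library left out the difference, STING-OE minus NC, ran from −0.541 to −0.401 percentage points for the mitochondrial share, from −0.863 to −0.432 for MT-ND6 per 1000 heavy-strand mRNA counts, from 767 to 979 for tRNA per 1000000 mitochondrial counts, and from −0.252 to 0.210 percentage points for the rRNA share. Among the tRNA genes depth is lowest for MT-TW, at 30 to 72 counts per library.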
